A study of Mus musculus with 3 samples.

Results

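The 6 genes described here encode the Fc receptors of mouse microglia and their partners: Fcgr1, Fcgr3 and Fcgr4, the activating receptors for immunoglobulin G, Fcer1g, their shared signalling chain, Fcgr2b, the inhibitory receptor, and Fcgrt, the neonatal receptor. They were taken by symbol from the 31053 genes listed in the deposited tables, and all 6 were found. They were followed in 19791 single cells that held 1000 or more UMIs (tags that count each captured RNA molecule once) and 500 or more genes, with no more than 10% of UMIs from mitochondrial genes. The cells were tdTomato-positive cells sorted from both hippocampi of mice of genotype Cx3cr1CreERT2/+ ; Rosa26tdTomato/+; NestinTK-eGFP/+. All animals had received tamoxifen at 100 mg/kg on 4 consecutive days, which switches on the reporter through a Cre recombinase expressed from the Cx3cr1 locus. That locus is active in microglia and in other macrophages and monocytes, so the reporter alone does not separate these cells. After perfusion with PBS, myelin was removed on magnetic columns and viable cells were sorted. The cells came from 12 animals, of which 6 were male and 6 female, and were sequenced by the 10x droplet method in 3 runs that form 1 group. The labels do not assign animals to runs, so n = 3 runs unless a run is said to be left out. A p-value of the main fits rests on the spread left between sums after each run's own level is taken out. That spread may be technical.

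Fc receptors bind the constant part of antibodies and let macrophages take up antibody-coated material. Fcgr1, Fcgr3 and Fcgr4 have no signalling motif of their own and signal through Fcer1g, whose ITAM motif recruits the kinase Syk. Fcgr2b carries an ITIM motif, which recruits the lipid phosphatase SHIP1 (Inpp5d) and dampens signals from activating receptors on the same cell. The relative amount of activating and inhibitory receptor therefore sets how strongly a macrophage responds to antibody. Fcgrt pairs with beta-2 microglobulin (B2m) and returns immunoglobulin G from endosomes to the cell surface instead of to the lysosome.

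Per GENCODE M21 on build GRCm38, 4 of the genes lie on chromosome 1 within 276 kb: Fcgr2b at chr1:170958617-170976547 (minus strand), Fcgr4 at chr1:171018920-171029761 (plus strand), Fcgr3 at chr1:171051174-171064935 (minus strand) and Fcer1g at chr1:171229572-171234365 (minus strand). Fcgr1 lies at chr3:96282909-96293969 (minus strand) and Fcgrt at chr7:45092990-45103851 (minus strand). Fcgr2b and Fcgr3 are near copies in part: 14.3% of the 31-base words of Fcgr3 transcripts also occur in Fcgr2b transcripts, and 6.42% the other way round. In the last 500 bases of the transcripts the shares were 0.521% and 5.10%. No other pair among the 6 shared such a word. Which end of the transcript the library read is not given in the sources used here, so some reads of Fcgr3 and Fcgr2b could have been left uncounted or assigned to the other gene.

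Promoter sequence is shown for Fcgr1 and Fcgr4, the only members that passed the test in the interferon-gated and the MHC class II-gated cells, respectively, described below. The Fcgr4 result is limited, since Fcgr4 passed the filter on low counts only through gates in which it was high. Each sequence is the stretch before the gene's start, 5′ to 3′ on the gene's strand. It comes from the RefSeq promoter table of build GRCm38.p6 and is cut at the GENCODE start where that comes first. Capitals in Fcgr1 (chr3:96293970-96294219, minus strand) mark the interferon gamma-activated site pattern TTCNNNGAA, which is its own reverse complement, 109 bases before the RefSeq start. Capitals in Fcgr4 (chr1:171018676-171018919, plus strand) mark the interferon-stimulated response element core GAAANNGAAA, 73 bases before the RefSeq start, and the reverse complement of the PU.1 core GAGGAAGT, 24 bases before it. The 2 matches in Fcgr4 do not overlap.
Fcgr1: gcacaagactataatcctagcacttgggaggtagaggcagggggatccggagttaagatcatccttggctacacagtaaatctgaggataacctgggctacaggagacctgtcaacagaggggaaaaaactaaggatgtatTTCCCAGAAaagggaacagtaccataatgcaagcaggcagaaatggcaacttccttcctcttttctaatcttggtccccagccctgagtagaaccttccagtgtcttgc
Fcgr4: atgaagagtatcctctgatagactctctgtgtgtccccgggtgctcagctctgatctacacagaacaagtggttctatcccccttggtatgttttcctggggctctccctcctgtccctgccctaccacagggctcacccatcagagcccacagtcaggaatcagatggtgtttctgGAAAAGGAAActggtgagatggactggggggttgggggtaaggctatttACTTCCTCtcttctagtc
Both strands were searched in the 250 bases before the start in 32851 RefSeq windows, of which 7.02% held the first pattern, 2.98% the second and 2.44% the third. The windows of Fcgr3, Fcer1g, Fcgr2b and Fcgrt held none of these letters. Those of Fcgr3, at chr1:171059354 and chr1:171059345, and of Fcgr2b, at chr1:170976022, lie inside the GENCODE genes. They therefore do not cover the bases before the GENCODE starts of these genes. A match is a description of the letters and not a mapped binding site.

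The runs held 7255, 6895 and 6226 barcodes with 34140879, 24717907 and 24225612 UMIs, of which 6993, 6720 and 6078 cells passed the filters, at a median of 4425, 3438 and 3696 UMIs. Pairs of runs shared 7 to 8 cell barcodes. Cells were sorted into populations by counting detected marker genes, and no Fc receptor gene was among the markers. Most were ungated microglia, with 6554, 6458 and 5373 cells in runs 1, 2 and 3, which carried at least 3 of 8 microglia markers and met no other gate. Summed levels of these 8 markers were between 25726 and 32260 CPM there (UMIs of a gene per 1000000 UMIs of the population), as the gate itself requires. They made up 18385 of the 19791 cells, so most cells of the sort carried markers of the labelled cell type. The gates compared with them held 163 border-associated macrophage-gated cells (at least 3 of Pf4, Lyve1, Mrc1, Cd163, F13a1, Cbr2, Ms4a7 and Clec10a), 74 MHC class II-gated cells, 140 interferon-gated, 52 cycling-gated, 145 lipid-gated and 66 chemokine-gated microglia. Levels are UMIs summed over a population in a run, and intervals are exact Poisson at 95%, for counting error only. They were not divided by transcript length, so they are compared between populations and not between genes. Levels were scaled to all UMIs of the sum and log2 changes by TMM, so a log2 change can differ from the ratio of levels.

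In ungated microglia all 6 genes were detected in each run, and all 6 were highest in run 2. Fcer1g was at 2323, 2844 and 2194 CPM in runs 1, 2 and 3, or 2454 ± 344 (SD, n = 3). Fcgr3, the low-affinity activating receptor, was at 1109.8, 1314 and 1091 CPM (1172 ± 124), and Fcgr1, the high-affinity receptor, at 488, 579 and 466 CPM (511 ± 60.1). Fcgr2b was at 207, 219.7 and 187 CPM (204 ± 16.6) and Fcgrt at 108, 133 and 118 CPM (119.9 ± 12.7). Fcgr4, a receptor best known from monocytes and neutrophils, was low but counted well above the floor of these sums, at 7.11, 10.6 and 9.35 CPM (9.04 ± 1.79), from 658 UMIs over 18385 cells.

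In single ungated microglia thinned to 2000 UMIs, with shallower cells left out, at least 1 UMI of Fcer1g was found in 98.4%, 99.5% and 98.0% of cells, of Fcgr3 in 87.1%, 91.5% and 87.0%, and of Fcgr1 in 62.0%, 68.4% and 59.5%. Fcgr2b was found in 32.4%, 34.4% and 30.4% and Fcgrt in 19.1%, 23.9% and 20.3%, while Fcgr4 was found in 1.44%, 2.08% and 1.92%. Without thinning, Fcgr2b was found in 3700 of 6554, 3261 of 6458 and 2538 of 5373 cells. Most microglia carried transcripts of an activating receptor at this depth: a UMI of any of the 3 was found in 95.3%, 97.2% and 95.1% of them. Both an activating and the inhibitory transcript were found in 30.99%, 33.5% and 29.0% of cells, against 30.9%, 33.5% and 28.9% from the product of the separate shares. With an activating UMI in nearly all cells the shares could hardly differ, so they cannot show whether the transcripts occur independently. Cells with the inhibitory transcript and no activating one made up 1.44%, 0.918% and 1.40%.

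Values in cells gated as another cell type are given for comparison, and whether those cells express the receptors themselves was not tested. Choroid plexus-gated cells, an epithelium, held Fcer1g in 8 of 13 and 6 of 13 cells of runs 1 and 2 after thinning to 2000 UMIs, Fcgr3 in 8 and 5, Fcgr1 in 4 and 5, Fcgr2b in 3 and 0, and Fcgrt in 0 and 2, at median depths of 2595 and 2245 UMIs before thinning. The 3 such cells of run 3 held no UMI of any of the 6 genes, and Fcgr4 had 1 UMI in 46 choroid plexus-gated cells. That UMI put run 2 at 13.1 CPM (interval 0.330 to 72.7), against 10.6 CPM in ungated microglia. In runs 1 and 3 the intervals reached 51.8 and 668 CPM, so the level of Fcgr4 in microglia was not set apart from these cells. Summed CPM there reached 1054, 979 and 0 for Fcer1g and 745, 469.9 and 0 for Fcgr3. Fcgrt of run 2 was at 157 CPM there, found in 9 of 23 cells without thinning, above the 133 CPM of ungated microglia of that run, so its level in microglia was not set apart from that of choroid plexus-gated cells. Microglia markers were present in these cells too, between 181 and 11145 CPM in sum and lowest in run 3, and their part in these values was not tested. The shares of cells with Fcer1g, Fcgr3 and Fcgr1 lay below those of ungated microglia in both runs.

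**Figure D1:**
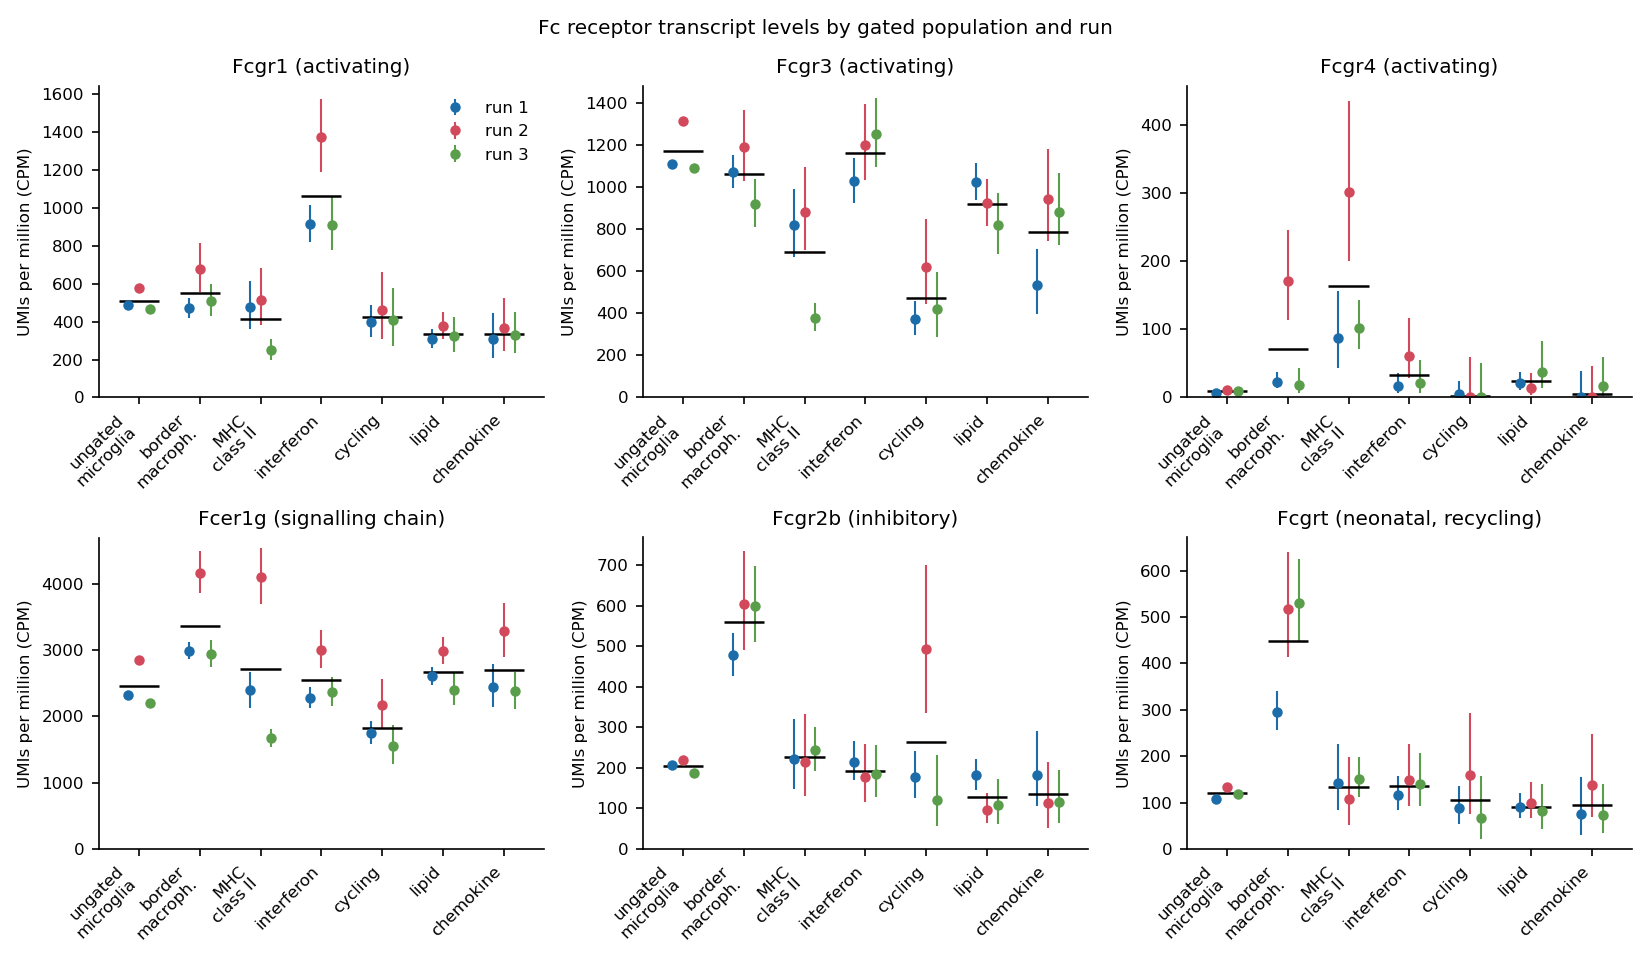
Level of each of the 6 Fc receptor genes (CPM, linear axis from 0) in 7 populations, 1 point per run with its exact 95% Poisson interval and a black line at the mean of the 3 runs. Fcgr2b and Fcgrt stand highest in border-associated macrophage-gated cells, Fcgr1 in interferon-gated microglia and Fcgr4 in MHC class II-gated cells, and the cycling-gated point of run 2 lies apart in the Fcgr2b panel.

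Border-associated macrophages line the meninges, vessels and choroid plexus and are related to microglia. Cells gated for their markers carried more transcripts of the inhibitory and of the neonatal receptor than ungated microglia did. Fcgr2b was at 478, 603 and 600.0 CPM in runs 1, 2 and 3 (560.4 ± 71.6, SD, n = 3), and each run lay above all 3 ungated values. Its log2 change was 1.67 ± 0.21 (SE; edgeR's quasi-likelihood test, Benjamini-Hochberg adjusted p = 4.80e-08). Fcgrt was at 296, 518 and 531 CPM (448 ± 132), again above every ungated value, with a log2 change of 2.07 ± 0.16 (edgeR adjusted p = 9.47e-13). Both were called in all 14 alternatives run. In the order of populations, Fcgrt in these cells stood above every sum of the other 6 populations, of which the highest was 159 CPM. Fcgr2b did so too with the exception of cycling-gated microglia of run 2, at 494 CPM.

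The signalling chain also rose. Fcer1g was at 2985, 4163 and 2945 CPM (3365 ± 692) with a log2 change of 0.67 ± 0.18 (edgeR adjusted p = 0.00516), and all 3 runs lay above the ungated values. This call was lost without run 2 (0.58, adjusted p = 0.152), without the block on run (adjusted p = 0.106) and when the populations were fitted in pairs (adjusted p = 0.0747). Fcgr4 was at 23.2, 171 and 18.3 CPM, so that run 2 stood far above the others while all 3 lay above the ungated range. Its log2 change was 2.70 ± 0.46 (edgeR adjusted p = 2.10e-05), and 1.63 without run 2 (adjusted p = 0.0203). In run 2, 3 of the 36 cells held 19 of the 28 Fcgr4 UMIs. The activating receptors Fcgr1 and Fcgr3 did not pass the test. Fcgr1 was at 470.5, 677 and 509 CPM (log2 change 0.32 ± 0.17) and Fcgr3 at 1072, 1189 and 918 CPM (0.08 ± 0.19), both overlapping ungated microglia. The Fcgr3 level lay below the ungated microglia of the same run in 3 of 3 runs, although the fitted change was positive. The sign of that change turned under 4 of 14 alternatives, among them scaling to library totals (-0.16). In all, 4 of the 6 members were called, each higher, where 25.4% of the 4707 genes tested were called. The median log2 change was 1.17 over the members and -0.02 over all genes. Fcgr4 entered the test only through gates in which it was high, and without it 3 of 5 members were called and the middle value was that of Fcer1g, 0.67.

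The gated macrophages were not free of microglial transcripts. Summed microglia markers were between 4303 and 14783 CPM in them, and 20 of the 71 cells of run 1 held transcripts of both Xist and a Y-linked gene, against 1 of 36 and 3 of 56 in runs 2 and 3 and 1.63% to 2.87% of ungated microglia. Leaving such cells out gave log2 changes of 1.74 for Fcgr2b and 2.25 for Fcgrt and added a call for Fcgr1 (0.44, edgeR adjusted p = 0.0314). Leaving out macrophages with 3 or more of 5 strict microglia markers gave 1.99 for Fcgr2b, 2.38 for Fcgrt and 0.61 for Fcgr1 (adjusted p = 0.00290), so these 3 changes were larger without the cells that carried microglial transcripts, while Fcgr3 stood at -0.02. MHC class II transcripts were also high in the gate, between 5265 and 12770 CPM against 13.7 to 17.3 in ungated microglia. Their part in the result was not tested.

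Among thinned cells grouped by how many of the 8 macrophage markers they held, Fcgrt stood at 1.07, 1.38 and 1.16 UMIs per 10000 in cells with none. With 4 or more markers it stood at 4.42, 6.43 and 7.56, from 52, 14 and 41 cells. Cells with 1 marker were at 1.18, 1.09 and 0.959, and their counting intervals covered the values of the cells with none. Fcgr2b was at 2.03, 2.19 and 1.86 with no marker and at 4.90, 7.86 and 5.61 with 4 or more, with no steady order between. Cells with 2 markers were at 5.91, 3.46 and 6.11, from 11, 13 and 9 cells, and those with 3 at 1.84, 5 and 5, from 19, 3 and 5 cells.

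Cells with transcripts of all 3 MHC class II genes H2-Aa, H2-Ab1 and H2-Eb1, and without macrophage markers enough for the gate above, differed in Fcgr4. It was at 87.4, 301 and 102 CPM (164 ± 120, SD, n = 3), each run above the ungated range of 7.11 to 10.6 CPM, with a log2 change of 4.27 ± 0.44 (edgeR adjusted p = 1.12e-09). The UMIs came from few cells: 8 of the 74 cells held 62 of the 73 Fcgr4 UMIs, and single cells held up to 5, 11 and 16 in runs 1, 2 and 3. After thinning to 2000 UMIs, Fcgr4 was found in 1 of 19, 4 of 14 and 5 of 37 cells. Over all 19791 cells, 22 held 3 or more Fcgr4 UMIs, of which 12 held 3 or more of the 5 strict microglia markers 11 held all 3 MHC class II genes and 5 held 2 or more monocyte markers. Only 4 were ungated microglia, and all 15 Fcgr4 UMIs of the 5 monocyte-gated cells lay in 3 of these cells. In the fit, Fcgr4 passed the filter on low counts through 5 of 21 sums at or above 54.1 CPM, none of them from ungated microglia, so it had to differ between populations, and its call is not independent of that. Fitted without the filter, the change was 4.17. The other 5 members passed it in all 21 sums.

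The remaining members were not called in MHC class II-gated cells. Fcgr3 was at 818, 883 and 378 CPM, below ungated microglia in 3 of 3 runs, with a log2 change of -0.51 ± 0.21 (edgeR adjusted p = 0.0574). Run 3 stood lowest, and without it the value was -0.20. Fcgr1 was at 476, 517 and 249 CPM, again lowest in run 3. Fcer1g was at 2390.4, 4101 and 1671 CPM, so the runs lay on both sides of the ungated values. Fcgr2b (222, 215 and 243 CPM) and Fcgrt (143, 108 and 150.04 CPM) had log2 changes of 0.53 ± 0.25 and 0.55 ± 0.23 and overlapped ungated microglia. Both lay below the ungated microglia of run 2, and their mean CPM were each 1.11 times those of ungated microglia. These levels thus rose less than the TMM-scaled log2 changes. The gate was mixed in every run. Summed monocyte markers were between 365 and 747 CPM, against 6.31 to 8.33 in ungated microglia, and dendritic markers between 118 and 777, against 5.96 to 7.68. Border-associated macrophage markers were between 341 and 1335 CPM (3.35 to 6.69 in ungated microglia) and microglia markers between 5842 and 12150 (25726 to 32260). Cells with at least 2 of 10 dendritic or monocyte markers were most frequent in run 3, at 13 of 37, against 3 of 19 and 1 of 18. In run 3, 41 of the 81 Fcgr2b UMIs and 6 of the 34 Fcgr4 UMIs lay in them. In run 1, 7 of the 11 Fcgr4 UMIs lay in the 3 such cells, and in run 2 none of the 28 did. Without those cells the change of Fcgr4 was 4.50 and Fcer1g was called higher (0.61, edgeR adjusted p = 0.00372). In all, 1 of the 6 members was called, where 32.8% of all genes were. It was Fcgr4, which entered the test only through gates in which it was high, and without it no member was called. The genes called included 902 higher and 643 lower with TMM scaling but 641 and 1475 with library totals. The median over all genes with library totals was -0.39. In border-associated macrophages the same change of scaling turned 708 higher and 488 lower into 537 and 940, with a median of -0.22.

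Interferon-gated microglia, which held at least 3 of Ifit1, Ifit2, Ifit3, Isg15, Oasl2, Irf7, Usp18 and Rsad2, carried more Fcgr1. It was at 913, 1371 and 909.7 CPM (1065 ± 266, SD, n = 3), and the lowest of these runs lay above every sum of the other 6 populations, of which the highest was 677. The log2 change was 1.03 ± 0.17 (edgeR adjusted p = 3.05e-05), called in all 13 alternatives. It was the 1 member called of 6, where 2.38% of all genes tested were called, 111 of them higher and 1 lower. Fcgr4 was at 16.3, 61.1 and 21.7 CPM, higher in 3 of 3 runs, from 6, 9 and 4 UMIs. Its log2 change of 1.64 ± 0.59 did not pass the test (edgeR adjusted p = 0.264), and it did under 3 of 12 alternatives, where the smallest adjusted p was 0.0183. The other activating receptor, Fcgr3, was at 1027, 1202 and 1251 CPM, with a change of -0.01 ± 0.20 whose sign turned under 7 of 13 alternatives. Fcer1g (0.05 ± 0.18), Fcgr2b (-0.06 ± 0.24) and Fcgrt (0.17 ± 0.21) overlapped the ungated values.

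The level of Fcgr1 was higher in cells with more interferon markers, except that run 1 dipped at 3 markers and runs 2 and 3 were highest there. Thinned cells with none of the 8 were at 4.95, 5.89 and 4.65 Fcgr1 UMIs per 10000, those with 1 at 5.92, 6.67 and 5.26, and those with 2 at 7.75, 9.64 and 7.29. Cells with 3 were at 7.37, 15 and 14.4, from 19, 12 and 9 cells. With 4 or more the level was 11.7, 14.5 and 13.7, from 21, 10 and 15 cells. Fcgr2b showed no such order in the same cells, at 2.03, 2.18 and 1.88 with none and 3.33, 1.00 and 2.33 with 4 or more, the last with intervals reaching from 0.121 to 5.59.

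**Figure D2:**
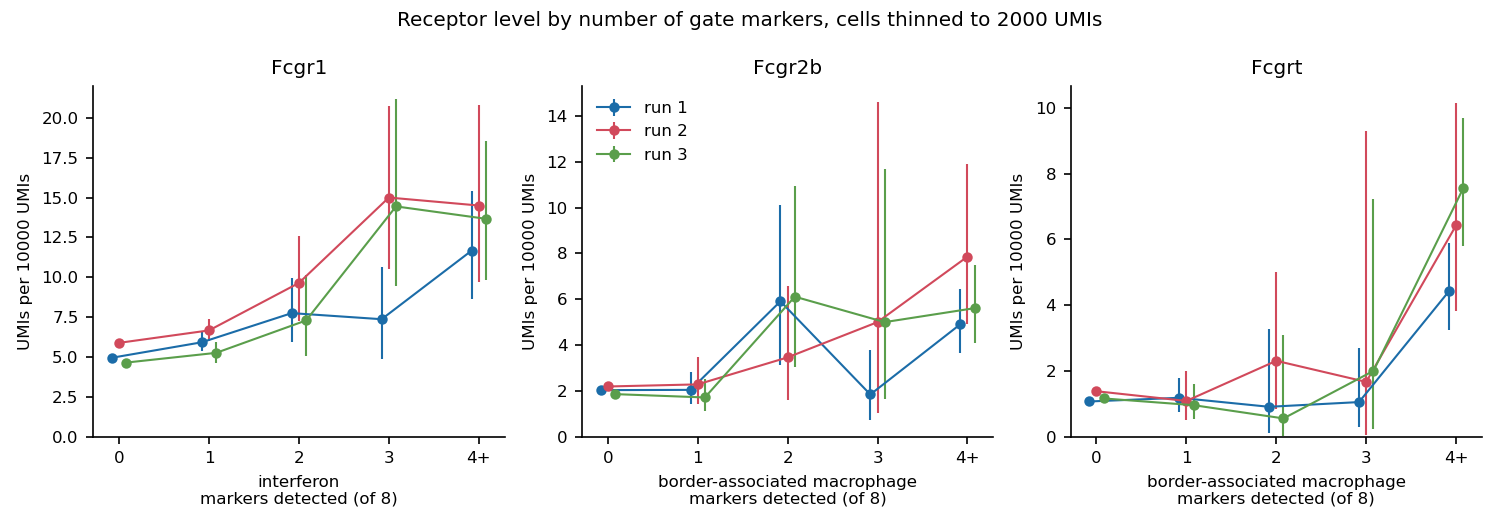
UMIs per 10000 of Fcgr1 by the number of interferon markers detected, and of Fcgr2b and Fcgrt by the number of border-associated macrophage markers detected, in cells thinned to 2000 UMIs, 1 line per run with exact 95% Poisson intervals. Fcgr1 climbed from 4.65 to 5.89 with no marker to 11.7 to 14.5 with 4 or more, and Fcgrt from 1.07 to 1.38 with no marker to 4.42 to 7.56 with 4 or more.

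Cycling-gated microglia, with at least 3 of Mki67, Top2a, Birc5, Cdk1, Ccnb2, Cenpf, Nusap1 and Ube2c, carried less Fcgr3. It was at 372, 621 and 419.7 CPM (471 ± 132, SD, n = 3) against 1091 to 1314 in ungated microglia, so the groups did not overlap. The log2 change was -1.42 ± 0.23 (edgeR adjusted p = 6.69e-06), called in all 12 alternatives that gave a value. It was the 1 member called, where 21% of all genes were. Fcgr1 was at 398, 462 and 406 CPM (-0.32 ± 0.19) and Fcer1g at 1744, 2166 and 1557 CPM (-0.48 ± 0.19, edgeR adjusted p = 0.0667), both below the ungated microglia of the same run in 3 of 3 runs. Fcgr2b was at 177, 494 and 122 CPM. Run 2 stood apart, with 31 UMIs spread over 10 of 10 cells and a highest count of 7 in 1 cell. The change of Fcgr2b was 0.14 ± 0.28, and -0.37 without run 2. Fcgrt was at 88.5, 159 and 67.7 CPM, again highest in run 2, and overlapped ungated microglia. Of Fcgr4 there was 1 UMI in run 1 (4.43 CPM) and 0 in runs 2 and 3, where the floor of 3 UMIs used for a count of 0 would be 47.8 and 40.6 CPM.

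Lipid-gated microglia held at least 3 of the 7 markers found of Spp1, Lpl, Itgax, Gpnmb, Cst7, Clec7a, Lgals3 and Csf1, since Clec7a was not matched. They carried less Fcgr1, at 307, 375 and 323 CPM (335 ± 35.6, SD, n = 3) against 466 to 579. The log2 change was -0.55 ± 0.18 (edgeR adjusted p = 0.0212), and 9 of 13 alternatives called it. It was lost without run 2 (-0.52, adjusted p = 0.240), without the block on run (adjusted p = 0.195), with a stricter cell filter (0.0585) and with 1 more gate marker (0.198), which left run 3 with 9 cells, under the minimum of 10, and out of the fit. It was the 1 member called, where 21.6% of all genes were. Fcgr2b was at 182, 96.4 and 108 CPM, below the ungated microglia in 3 of 3 runs, with a change of -0.51 ± 0.24 (edgeR adjusted p = 0.127), and -0.99 without run 1 (adjusted p = 0.00932). It was also called in pairwise fits (-0.55) and in cells thinned to 2000 UMIs before gating (-2.56, adjusted p = 0.00396), where the gate held 14, 15 and 13 cells. Fcgr3 (1023, 922 and 817 CPM) and Fcgrt (90.8, 99.8 and 82.4 CPM) lay below all ungated values and did not pass the test, with changes of -0.26 ± 0.20 and -0.27 ± 0.21. Fcgr4 (21.2, 13.8 and 38.0 CPM; 1.37 ± 0.57) and Fcer1g (2607, 2984 and 2401 CPM; 0.19 ± 0.18) lay above the ungated microglia of their run.

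In chemokine-gated microglia, with at least 10 UMIs of Ccl3 and Ccl4 together, none of the 6 members passed edgeR's test, where 6.71% of all genes did, and 2 had an unadjusted p under 0.05, as did 872 of the 4707 genes. These were Fcgr1, at 310.0, 365 and 330.0 CPM (-0.54 ± 0.20, adjusted p = 0.1085), and Fcgr3, at 534, 943 and 883 CPM (-0.52 ± 0.21, adjusted p = 0.161). The DESeq2 Wald test also called 0. Fitted in pairs, both were called lower. Fcgr2b was at 182, 113 and 115 CPM and Fcgrt at 74.8, 138 and 74.2 CPM, from 7 to 17 UMIs a run. Fcgr4 had 0, 0 and 2 UMIs in 19, 19 and 28 cells, where 3 UMIs would be 32.1, 37.7 and 24.7 CPM.

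**Figure D3:**
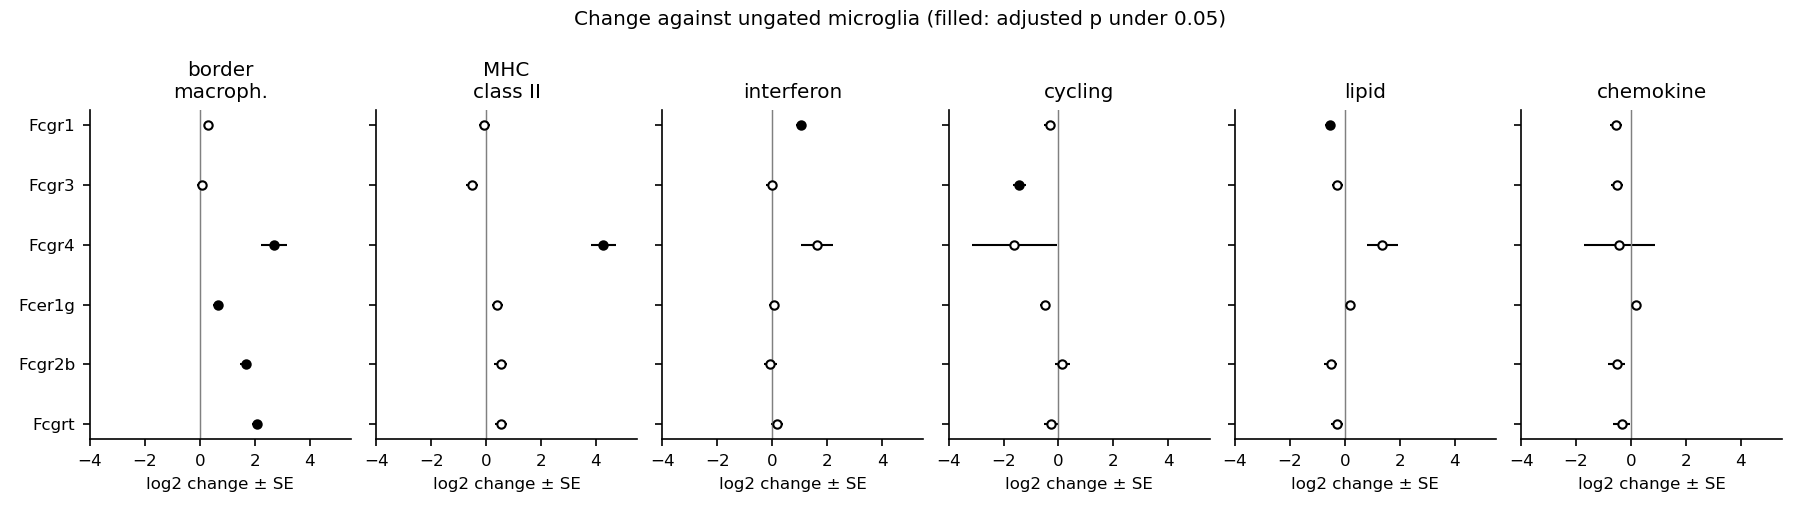
Log2 change (± SE) of each Fc receptor gene against ungated microglia in 6 gated populations, from edgeR's quasi-likelihood fit over 21 sums; filled points have an adjusted p under 0.05. Border-associated macrophage-gated cells have 4 filled points, all to the right of 0, chemokine-gated microglia have none, and Fcgr4 has the widest error in each panel.

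Animals of both sexes were mixed in the runs, and ungated microglia were also divided into cells with at least 2 Xist UMIs and none of 4 Y-linked genes and cells with a Y-linked UMI and no Xist. None of the 6 members passed edgeR's test or the DESeq2 Wald test, and none had an unadjusted p under 0.05, where 0.712% of 11233 genes were called. Their log2 changes, Xist-positive over Y-linked-positive, ran from -0.07 for Fcgr3 to 0.07 for Fcgr2b, with standard errors of 0.04 to 0.05 except 0.16 for Fcgr4. The 95% interval of the Fcgr3 change ran from -0.17 to 0.02 and that of Fcgr2b from -0.03 to 0.16.

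The activating to inhibitory ratio was taken as the summed UMIs of Fcgr1, Fcgr3 and Fcgr4 over those of Fcgr2b in a run. It was compared on the log2 scale with a pseudocount of 0.5. It is a ratio of transcripts, and receptor protein was not measured here. In ungated microglia it was 7.76, 8.66 and 8.38 in runs 1, 2 and 3. In border-associated macrophage-gated cells it was 3.28, 3.37 and 2.41, below every ungated value. The log2 difference within runs was -1.25, -1.37 and -1.80, a mean of -1.47 ± 0.29 (SD, n = 3). The exact two-sided sign-flip permutation test gave p = 0.25, the smallest that 3 runs allow, and 0.375 after adjustment over 6 comparisons, so no difference of this ratio could pass the threshold. Leaving out Fcgr1 gave -1.53, and leaving out macrophages with microglia markers -1.72. The lower ratio came with more Fcgr2b and with Fcgr1 and Fcgr3 levels that overlapped those of microglia, while Fcgr4 was higher and made up few of the activating UMIs (3.71 ± 4.05%).

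Interferon-gated microglia had ratios of 9.11, 14.9 and 11.9, above ungated microglia in 3 of 3 runs, with a mean log2 difference of 0.49 ± 0.27 (exact p = 0.25). Without Fcgr1 the difference was 0.092. Fcgr1 made up 46.8 ± 5.19% of the activating UMIs there, against 30.2 ± 0.383% in ungated microglia. MHC class II-gated cells had ratios of 6.21, 7.90 and 3.00, with a mean difference of -0.66 ± 0.72 (exact p = 0.25) that was -0.25 without run 3 and -0.46 without cells that held dendritic or monocyte markers. Fcgr4 made up 12.7 ± 5.81% of their activating UMIs, against 0.533 ± 0.0802% in ungated microglia. Cycling-gated microglia had ratios of 4.38, 2.19 and 6.78, with a mean difference of -1.07 ± 0.83 (exact p = 0.25), which was -0.61 without run 2 and -0.15 with the stricter cell filter, under which run 2 held 8 cells and was left out too. In them Fcgr1 made up 47.8 ± 4.56% of activating UMIs. The ratios of lipid-gated microglia, 7.45, 13.6 and 10.9 (difference 0.30 ± 0.35, exact p = 0.5), and of chemokine-gated microglia, 4.65, 11.6 and 10.6 (-0.04 ± 0.63, exact p = 1), lay on both sides of the ungated values.

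**Figure D4:**
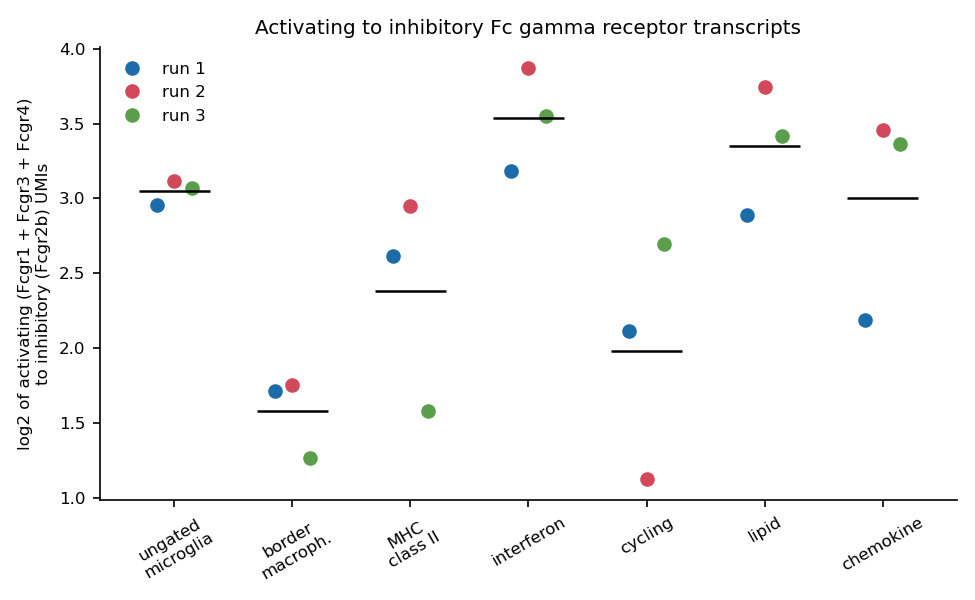
Log2 ratio of activating (Fcgr1, Fcgr3 and Fcgr4) to inhibitory (Fcgr2b) UMIs in 7 populations, 1 point per run and a black line at the mean; the axis starts at 1. Border-associated macrophage-gated cells lie below all ungated microglia in each run, interferon-gated microglia lie above the ungated microglia of their run, and the cycling-gated runs are spread from 1.12 to 2.69.

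The activating receptors need Fcer1g, and its UMIs per activating UMI also differed between populations. In ungated microglia there were 1.45 ± 0.05 (SD, n = 3; range 1.40 to 1.49). Interferon-gated microglia had 1.13 ± 0.04, with a highest run of 1.17, below every ungated value. Fcgr1, which was higher there, is part of the activating UMIs, while Fcer1g itself was not called (log2 change 0.05 ± 0.18). The lower value is therefore not independent of the Fcgr1 change. Border-associated macrophage-gated cells had 2.00 ± 0.08, and the other gates had means between 2.05 and 2.45, with every run above the ungated range. These are ratios of UMIs and are compared between populations only.

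Signalling partners were taken from 4 lists. Of 15 genes on the ITAM side, 12 were tested. In border-associated macrophage-gated cells 0 of them were higher and 2 lower (2 of 12, against 25.4% of all genes), Lyn, a kinase that phosphorylates these motifs (-0.47), and the adaptor Lat2 (-0.92). Their median was -0.17 against -0.02 over all genes. In MHC class II-gated cells, where 32.8% of all genes were called, 1 was higher, Lat2 (0.61), and 2 lower, Lyn (-0.56) and Lcp2 (-0.79), another adaptor. In cycling-gated microglia, against 21% of all genes, 0 were higher and 3 lower, among them Tyrobp (-0.79), the other ITAM chain of microglia, and the kinase Prkcd (-0.89), with a median of -0.22 against -0.04 over all genes. Tyrobp was at 1677 ± 109 CPM there and 2827 ± 283 in ungated microglia. In lipid-gated microglia, against 21.6% of all genes, 2 were higher, Tyrobp (0.52, at 3858 ± 66.8 CPM) and Lat2 (0.72), and 2 lower, among them Lcp2 (-0.67). Syk, the kinase that binds these motifs, was lower in chemokine-gated microglia (-1.67 ± 0.49, edgeR adjusted p = 0.0339), at 26.3 ± 22.9 CPM against 86.7 ± 20.9. It was the 1 called of the 12, against 6.71% of all genes. None of the 12 was called in interferon-gated microglia, where 2.38% of all genes were.

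On the inhibitory side 4 of 6 genes were tested. Inpp5d, the phosphatase that Fcgr2b recruits, was lower in border-associated macrophage-gated cells (-0.71, at 289.9 ± 166 against 546 ± 108 CPM). It was the 1 called of the 4 there, where 25.4% of all genes were called and Fcgr2b was higher. Inpp5d was also lower in MHC class II-gated (-0.82) and lipid-gated cells (-0.69). Ptpn6, a tyrosine phosphatase, was higher in MHC class II-gated cells (0.81) and Dok3, an adaptor, lower in lipid-gated microglia (-1.35). In MHC class II-gated cells 1 of the 4 was thus higher and 1 lower, against 32.8% of all genes called. In lipid-gated microglia 2 of the 4 were lower, against 21.6%. None of the 4 was called in interferon-gated, cycling-gated or chemokine-gated microglia, where 2.38%, 21% and 6.71% of all genes were.

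B2m, the partner chain of Fcgrt, was higher in border-associated macrophage-gated (0.73), MHC class II-gated (1.24) and lipid-gated cells (0.63), at 1559 ± 62.1, 2068 ± 224 and 1640.0 ± 448 CPM against 1099 ± 105. B2m is also the partner of MHC class I molecules. Ighm was the 1 other gene tested of the 11 on the ligand list, at 281 ± 40.4 CPM in ungated microglia, and it was lower in cycling-gated (-0.79) and lipid-gated microglia (-0.85). Of 13 other Fc-binding or Fc receptor-like genes 1 was tested. This was Fcrls, a microglial gene related to the Fc receptors, at 2384 ± 348 CPM in ungated microglia and 755 ± 438 CPM in MHC class II-gated cells (-1.39, edgeR adjusted p = 3.99e-06). It was not called in the other gates. No gene of the 4 lists was called between Xist-positive and Y-linked-positive microglia, where 0.712% of all genes were.

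Among 6102 genes with a mean of at least 20 CPM, those whose log2(CPM + 1) followed each member most closely over the 21 sums were listed as a description. The sums share runs and depth, and no p is given. Fcgr1 was followed by Ly6e (Pearson r = 0.83), Parp12 (0.80) and Hmox2 (0.79). Fcgr3 was followed by Tmcc3 (0.86), P2ry6 (0.81) and Ifnar2 (0.81), and Fcer1g by Bri3 (0.80), Ifnar2 (0.80) and Cndp2 (0.79). Ifnar2 was the 1 gene listed for both. Fcgr4 was followed by Fgl2 (0.88), Fam129a (0.84) and Samhd1 (0.83). Fcgr2b was followed by C4b (0.87), Tsc22d3 (0.84) and Clec4a1 (0.83), and Fcgrt by Cd209f (0.87), Stab1 (0.85) and Igfbp4 (0.84).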

How the data were processed

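Single-cell RNA counts came from 3 runs. The deposited values are whole UMI counts per gene and cell from the 10x Genomics protocol, per the labels; the submitters' processing notes name Cell Ranger, Seurat 4.0 and build mm10, and the file headers give counting software 3.0.2 for run 1 and 3.1.0 for runs 2 and 3. The lowest barcode held 500 UMIs. From these counts, cells were filtered, gated by detected markers and summed per run and population. The members and gene lists were chosen with earlier results of these data known. Doublets were not called; cells with both sexes' transcripts were left out as an alternative. Cells that met 2 or more gates were left out as mixed.

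Sums were tested in 1 fit of 7 populations and 3 runs with edgeR 4.0.16 (R 4.3.3; TMM scaling, filterByExpr, quasi-likelihood test, run as a block, Benjamini-Hochberg over 4707 genes, adjusted p under 0.05). Pairing by run rests on the library that a gated and an ungated sum share: their residuals correlated at 0.19 to 0.55 over genes for every gate and run. Standard errors were derived from the F statistic. All 6 members were named in every comparison, and list members past the threshold at 20 CPM or more, up to 4 per list; 1 list gene is not reported here by name. The 3 genes most like each member left out gate markers, ribosomal and mitochondrial genes. Ratios were tested by exact sign-flip permutation. The test was also run on simulated counts with known changes, a common dispersion and no run effect. Apart from the changed genes, every population had the ungated profile. The simulation therefore does not check the run block or differences in composition. Alternatives were other scalings, DESeq2 1.42.0, no filter, no block, pairwise fits, stricter cells or gates, thinning to 2000 UMIs, and leaving out a run or doubtful cells. Library totals, and the MHC class II gate without dendritic or monocyte markers, were chosen after seeing the data.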

Additional observations from a re-analysis of the deposited data

How the results depend on the processing

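Of 145 alternatives for the counts of members called and the ratio differences, 119 stayed within 1.5 times the main count or 1 SD, and of 534 for single members 462 kept direction and side of the threshold, 33 gained the call, 7 lost it and 32 turned sign; the cause was not tested. For the ratio, leaving out Fcgr1 gave 0.092 in interferon-gated microglia, the stricter cell filter, which also dropped run 2, -0.15 in cycling-gated and thinning 1.49 in lipid-gated microglia. Without the replicate block on run, the members called were 3, 1, 1, 1, 0, 0 and 0 in the border-associated macrophage, MHC class II, interferon, cycling, lipid, chemokine and Xist comparisons, and the genes called 807, 1142, 89, 650, 400, 127 and 0 against 1196, 1545, 112, 987, 1019, 316 and 80. Of the MHC class II members, 2 were called with DESeq2 size factors, library totals, the DESeq2 Wald test, no filter, thinning and without dendritic or monocyte markers, 3 with 1 more gate marker, 4 without cells with both sexes' transcripts and 1 to 3 when a run was left out. Interferon-gated microglia had 2 with no filter, pairwise fits and 1 more marker, and cycling-gated 2 with no filter and without cells with both sexes' transcripts and 3 with pairwise fits. Lipid-gated microglia had 2 with no filter, 4 with pairwise fits, 0 with the stricter filter and with 1 more marker (without run 3, at 9 cells), 3 when thinned and 1 to 2 when a run was left out; chemokine-gated had 2 with pairwise fits.

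The sign of Fcgr3 in border-associated macrophages turned with library totals (-0.16), pairwise fits (-0.0051), thinning (-0.21) and without microglia markers (-0.020), and in interferon-gated microglia with DESeq2 size factors (0.022), the Wald test (0.023), the stricter filter (0.0078), thinning (0.020) and without cells with both sexes' transcripts (0.013), with -0.12 to 0.067 when a run was left out. Fcgr1 in MHC class II-gated cells turned with thinning (0.094) and without dendritic or monocyte markers (0.37), and ran from -0.23 to 0.21 when a run was left out. In interferon-gated microglia Fcer1g was -0.031 without the filter and Fcgr2b -0.15 to 0.050 when a run was left out. Fcgr2b in cycling-gated microglia was -0.047 without the filter, -0.082 in pairwise fits, -0.64 with the stricter filter, -0.37 with 1 more marker (both of which left run 2 with 8 cells, under the minimum of 10, and out of the fit) and -0.37 to 0.47 when a run was left out. Fcgr4 in chemokine-gated microglia ran from -8.28 to 0.20 when a run was left out. For Xist-positive cells, thinning turned Fcgr4 (0.010), Fcer1g (0.010) and Fcgrt (0.0063), and leaving out a run gave -0.056 to 0.0071 for Fcgr1, -0.30 to 0.14 for Fcgr4, -0.053 to 0.0088 for Fcer1g and -0.064 to 0.015 for Fcgrt.

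Counts of all genes called also moved by over 1.5 times: in border-associated macrophages to 734 without run 2, 755 without run 3 and 487 thinned; in MHC class II-gated cells to 697 without run 3, 499 thinned and 936 without dendritic or monocyte markers; in interferon-gated to 232 in pairs and 49 thinned; in cycling-gated to 1781 in pairs and 606 without run 1; in lipid-gated to 1721 in pairs, 336 without run 2, 447 with 1 more marker and 212 thinned; in chemokine-gated to 165 without run 1, 101 without run 2, 199 with the stricter filter and 131 thinned; for Xist to 16 by the Wald test, 122 without run 1 and 31 thinned. Higher calls in chemokine-gated microglia were 198 of 316 with TMM and 270 of 334 by the Wald test, in cycling-gated 620 of 987 and 694 of 946, and in lipid-gated 528 of 1019, 411 of 1007 with library totals and 527 of 875 by the Wald test.

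Thinned sums of the gated populations allowed tests of 880 genes, without Fcgr4 and without cycling-gated microglia, and those of the Xist comparison 10202 genes. Depth limits Fcgr4, with 0 to 34 UMIs in a gated sum.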

Other observations

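Cells outside the tested gates add values for the 6 genes. The 5 monocyte-gated cells held 8, 0 and 7 Fcgr4 UMIs in 2, 1 and 2 cells of runs 1, 2 and 3, or 881, 0 and 895 CPM, while Fcgr3 had 0, 5 and 7 UMIs. The 438 immediate early-gated microglia of run 3, against 4 and 2 in runs 1 and 2, stood at 441 CPM for Fcgr1, 1065 for Fcgr3, 13.9 for Fcgr4, 2168 for Fcer1g, 188 for Fcgr2b and 133 for Fcgrt, beside 466, 1091, 9.35, 2194, 187 and 118 in ungated microglia of that run. No test was made for either.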
